A study of Mus musculus with 8 samples.

Results

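The 10 genes described here are Il1a, Il1b, Il1rn, Il1r2, Il18, Tnf, Nfkbia, Nfkbiz, Tnfaip3 and Ptgs2, chosen by name as ligands, inhibitors and feedback genes of interleukin-1, TNF and NF-kappaB signalling. All 10 were found among the 18193 genes measured. Expression was measured in GFP-positive cells sorted from digested kidneys of male FSP1-eGFP mice on a C57BL/6 background, aged 6 months, with Affymetrix mouse arrays. In these mice the FSP1 (S100a4) promoter drives GFP, a reporter used to mark fibroblasts that is known to be active in leukocytes as well. The ischemic group consisted of 5 kidneys, each clamped at its artery and vein for 45 minutes on the left side, reperfused and collected 3 days later, from mice given buprenorphine after surgery. The normal group consisted of 3 arrays of cells from kidneys without ischemia, which the labels also call sham. Nothing in the labels describes pooling. They name 5 mice for the ischemic group and no number of mice for the normal group.

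IL-1alpha and IL-1beta are cytokines that bind the type 1 IL-1 receptor, and TNF binds its own receptors. Both routes activate the kinase complex that releases NF-kappaB from its inhibitor IkappaBalpha, and NF-kappaB then switches on genes that include its own inhibitors. In the injured kidney these cytokines are known to come from infiltrating and resident leukocytes and from tubule cells.

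Several arrays stood apart before any gene of the pathway was considered. Across genes ischemic 1 correlated at a median of 0.753 with the rest, while each remaining array did so at 0.850 to 0.913. Normal 3 was closest to ischemic 5 (0.976), an array of the other group. The X-inactivation RNA Xist was at 11.21 in ischemic 1, 9.39 in ischemic 2 and 11.01 in normal 1, and between 4.49 and 4.96 in the other arrays, although all mice are labelled male. Eif2s3y, a Y-linked gene, was lowest in ischemic 1 and normal 1, both at 5.84, and lay between 7.68 and 8.87 in the other arrays. S100a4, the gene of the reporter, was at 11.53 to 12.22 in ischemic and 11.30 to 11.94 in normal arrays. Results are also given without the arrays of high Xist signal or with the Xist class, high or low, as a block. Ischemic 1, ischemic 2 and normal 1 formed the high class. Summed intensities of 10 macrophage markers were 7969 to 14881 in ischemic and 5045 to 7753 in normal arrays, with positive differences in 10 of 10. Those of 8 proximal tubule markers were 775 to 2219 in ischemic and 6540 to 16484 in normal arrays, with negative differences in 8 of 8. Those of 9 fibroblast markers were 199 to 1525 in ischemic and 236 to 670 in normal arrays, with positive differences in 8 of 9. Of the 9 fibroblast markers 4 were at least as bright as the median gene, and Lum, a fibroblast proteoglycan, was near the floor in all arrays. In such sorted bulk samples fewer cells of a type and less RNA per cell cannot be told apart.

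None of the 10 genes differed between cells from ischemic and normal kidneys beyond the spread of the arrays. Differences are ischemic minus normal on the log2(intensity + 16) scale after quantile normalization, and every gene is its brightest probe set. With limma and Benjamini-Hochberg adjustment over all 18193 genes, 0 of 10 passed an adjusted p of 0.05, with values from 0.866 to 0.981. That share was 0% among all genes tested (0 of 18193). At an unadjusted p under 0.05, 0 of the 10 were called, against 7.13% of all genes (2.11% higher and 5.02% lower). The 2 groups overlapped in all 10 genes, while they did not overlap in 5.33% of all genes (1.89% higher and 3.44% lower). The difference was positive in 9 of the 10, against 54.8% of all genes. The median was 0.37 over the 10 genes and 0.041 over all genes. It turned to -0.084 without normal 1 and was 0.69 without normal 3, so it rests on which normal arrays enter. Keeping the 5 low-Xist arrays gave 0.071, and a block for the Xist class gave 0.41. With arrays centred on their medians, or with no scaling, 8 of the 10 were positive.

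**Figure D1:**
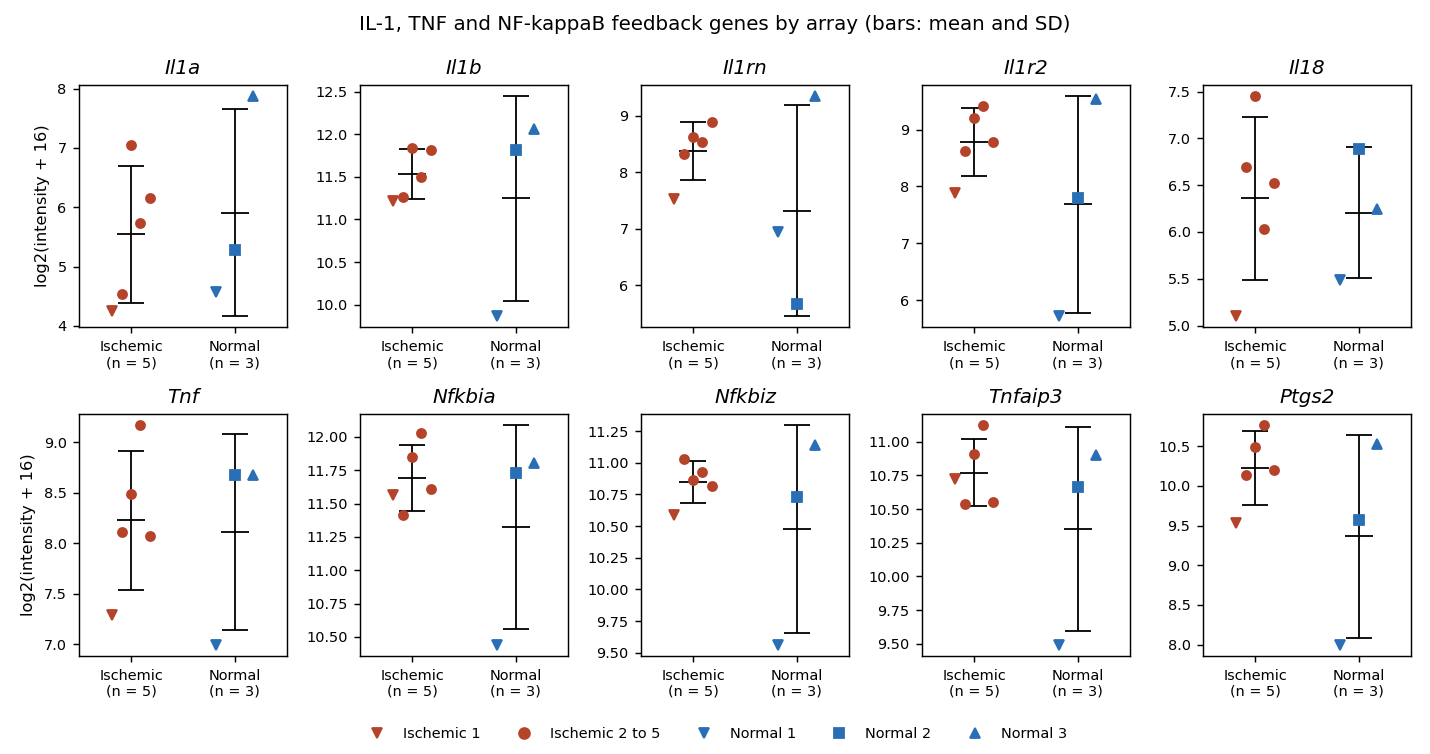
Level of each gene in every array on the log2(intensity + 16) scale (vertical axis), with the 5 ischemic arrays left and the 3 normal arrays right in each panel. Horizontal marks and bars are the mean and SD of a group. Normal 1 is the lowest of all 8 arrays in 7 of the 10 genes, and the groups overlap in all 10.

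Il1b encodes IL-1beta, the secreted form made mainly by myeloid cells. It was at 11.22, 11.27, 11.84, 11.50 and 11.82 in ischemic 1 to 5, and at 9.86, 11.82 and 12.06 in normal 1 to 3. All ischemic arrays lay between normal 1 and normal 3, and the deposited intensities spanned 2105 to 4035 in ischemic and 1030 to 4243 in normal arrays. Ischemic arrays averaged 11.53 ± 0.29 (SD, n = 5) and normal arrays 11.25 ± 1.20 (SD, n = 3). The difference of 0.28 ± 0.48 (SE) had a 95% interval of -0.82 to 1.38 (limma adjusted p = 0.964). It turned to -0.41 without normal 1 and to -0.22 among the 5 arrays with low Xist signal.

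Il1a encodes IL-1alpha, which is also active as the uncleaved precursor and is released by dying cells. It was at 4.25, 4.54, 7.05, 5.74 and 6.15 in ischemic 1 to 5, and at 4.56, 5.28 and 7.88 in normal 1 to 3. Ischemic 1, ischemic 2 and normal 1, the arrays with high Xist signal, were the lowest, with deposited intensities of 4.12, 6.71 and 7.30, close to the floor of the table. The highest was normal 3, at an intensity of 247. This was the only gene of the 10 with a negative difference, -0.36 ± 0.86 (SE; 95% interval -2.34 to 1.61; limma adjusted p = 0.970). It turned to 0.62 without normal 3.

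Il18 encodes IL-18, an IL-1 family cytokine matured by caspase-1 and made by macrophages and epithelia. It was at 5.10, 6.69, 7.45, 6.03 and 6.52 in ischemic 1 to 5, and at 5.49, 6.89 and 6.24 in normal 1 to 3. The ischemic arrays held both the lowest and the highest value. The difference was 0.15 ± 0.53 (SE; 95% interval -1.06 to 1.37; limma adjusted p = 0.973), and it was -0.20 without normal 1 and -0.12 without ischemic 3.

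Tnf encodes TNF. It was at 7.29, 8.11, 8.49, 9.17 and 8.07 in ischemic 1 to 5, and at 6.99, 8.67 and 8.67 in normal 1 to 3. Normal 2 and normal 3 exceeded 4 of the 5 ischemic arrays, and ischemic 4 was the highest of all. Ischemic arrays averaged 8.23 ± 0.68 (SD, n = 5) and normal arrays 8.11 ± 0.97 (SD, n = 3). The difference of 0.11 ± 0.51 (SE; 95% interval -1.06 to 1.29; limma adjusted p = 0.981) had no stable sign. It was -0.45 without normal 1, -0.12 without ischemic 4, -0.053 with arrays centred on their medians and -0.068 with no scaling.

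Among the inhibitors of IL-1, Il1rn encodes the IL-1 receptor antagonist, which occupies the receptor without activating it. It was at 7.53, 8.33, 8.62, 8.54 and 8.88 in ischemic 1 to 5, and at 6.93, 5.67 and 9.35 in normal 1 to 3. The ischemic arrays lay above normal 1 and normal 2 and below normal 3. Ischemic arrays averaged 8.38 ± 0.51 (SD, n = 5) and normal arrays 7.32 ± 1.87 (SD, n = 3). The difference was 1.06 ± 0.73 (SE; 95% interval -0.61 to 2.73; limma adjusted p = 0.903). Without normal 3 it was 2.08 (limma adjusted p = 0.134), and without normal 2 it was 0.24. The other 2 probe sets of Il1rn gave 1.52 and 1.42, and 0.92 and 0.91 without normal 1.

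Il1r2 encodes the decoy receptor, which binds IL-1 without signalling. It was at 7.88, 8.63, 9.21, 9.41 and 8.78 in ischemic 1 to 5, and at 5.72, 7.80 and 9.53 in normal 1 to 3. Here too every ischemic array lay above normal 1 and normal 2 and below normal 3, and the deposited intensity of normal 1 was 35.8 against 767 in normal 3. The difference was 1.10 ± 0.76 (SE; 95% interval -0.63 to 2.83; limma adjusted p = 0.903). It was 0.12 without normal 1 and 2.02 without normal 3 (limma adjusted p = 0.283 without normal 3).

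The balance of antagonist and cytokine was compared within each array. The log2 level of Il1rn minus that of Il1b was -3.69, -2.94, -3.22, -2.97 and -2.94 in ischemic 1 to 5, and -2.93, -6.15 and -2.71 in normal 1 to 3. Normal 2 alone was far lower than the rest. The difference between the groups was 0.78 (two-sided exact permutation p = 0.571 over 56 splits), and it turned to -0.33 without normal 2. For Il1r2 minus Il1b the difference was 0.82 (exact permutation p = 0.143), and 1.33 without normal 3 (exact permutation p = 0.0476, the smallest that 7 arrays allow). Adjusted over the 4 such balances tested, all had an exact permutation p of 0.571. The smallest p this design allows is 0.0179 before adjustment, so 1 balance alone could not pass 0.05 after adjustment over 4.

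Nfkbia encodes IkappaBalpha, which holds NF-kappaB in the cytoplasm and is itself an NF-kappaB target. It was at 11.56, 11.41, 11.85, 12.03 and 11.61 in ischemic 1 to 5, and at 10.44, 11.73 and 11.80 in normal 1 to 3. Normal 1 was far below every other array, and the other 2 normal arrays lay within the ischemic range. The difference was 0.37 ± 0.34 (SE; 95% interval -0.42 to 1.15; limma adjusted p = 0.947), and -0.075 without normal 1. All 5 probe sets of Nfkbia gave positive differences, from 0.20 to 0.51, and without normal 1 they ran from -0.16 to 0.10.

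Tnfaip3 encodes A20, a ubiquitin-editing enzyme that ends signalling from the TNF and IL-1 receptors. It was at 10.72, 10.54, 10.91, 11.12 and 10.55 in ischemic 1 to 5, and at 9.49, 10.66 and 10.90 in normal 1 to 3. Again normal 1 was the lowest and the other arrays lay close together. The difference was 0.42 ± 0.34 (SE; 95% interval -0.36 to 1.20; limma adjusted p = 0.929), and -0.013 without normal 1. A second probe set gave 0.65, and 0.23 without normal 1.

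Nfkbiz encodes IkappaBzeta, a nuclear member of the IkappaB family that helps to induce a subset of NF-kappaB targets. It was at 10.59, 11.03, 10.86, 10.93 and 10.82 in ischemic 1 to 5, and at 9.56, 10.73 and 11.14 in normal 1 to 3. The ischemic arrays were tightly grouped, with an SD of 0.17 against 0.82 in the normal arrays. The difference was 0.37 ± 0.35 (SE; 95% interval -0.43 to 1.16; limma adjusted p = 0.947), -0.092 without normal 1 and -0.068 among the low Xist arrays. The other 2 probe sets gave 0.40 and 0.40, and 0.42 and 0.31 without normal 1, which was not their lowest array, so the sign turned in 1 of the 3 probe sets.

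Ptgs2 encodes cyclooxygenase-2, the inducible enzyme of prostaglandin synthesis and an NF-kappaB target. It was at 9.53, 10.13, 10.49, 10.77 and 10.20 in ischemic 1 to 5, and at 7.99, 9.57 and 10.52 in normal 1 to 3. Its adjusted p was the lowest of the 10 genes, with a difference of 0.86 ± 0.54 (SE; 95% interval -0.36 to 2.09; limma adjusted p = 0.866). The difference was 0.18 without normal 1 and 1.44 without normal 3 (limma adjusted p = 0.363 without normal 3). A second probe set gave 0.94, and 0.21 without normal 1.

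**Figure D2:**
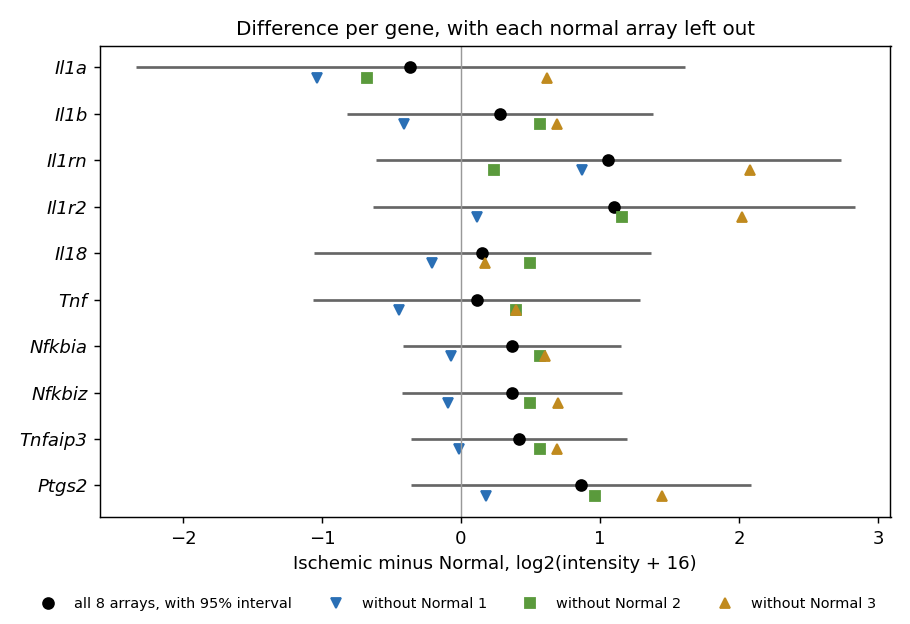
Ischemic minus normal difference on the log2(intensity + 16) scale (horizontal axis) for each gene, as a black point with its 95% interval, and again with each normal array left out. Every interval crosses 0, and without normal 1 the difference is negative in 7 of the 10 genes.

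The spread lay mostly among the normal arrays. The SD of the 3 normal arrays exceeded that of the 5 ischemic arrays in 9 of the 10 genes, Il18 being the exception, against 36.2% of all genes and 37.2% of the brighter 50%. Normal 1 was the lowest of the 8 arrays in 7 of the 10 genes, against 14.8% of all genes and 17.3% of the brighter 50% of genes. Ischemic 1 was the lowest in Il1a and Il18, and normal 2 in Il1rn. Normal 3 was the highest in 5 genes (Il1a, Il1b, Il1rn, Il1r2 and Nfkbiz) and ischemic 4 in another 4 (Tnf, Nfkbia, Tnfaip3 and Ptgs2), with ischemic 3 the highest in Il18. The median deviation of an array from the gene means was -1.13 in normal 1 over the 10 genes and -0.038 over all genes. In ischemic 1 the median deviations were -0.41 over the 10 genes and -0.066 over all genes, or -0.35 over the brighter 50%. Marker sums also differed between the normal arrays. In normal 1 to 3 the summed dendritic cell markers were at 537, 911 and 1500, the lowest in normal 1 and the highest in normal 3 of all 8 arrays. Monocyte markers were at 2107, 2954 and 2841, and macrophage markers at 5045, 7753 and 5237, both lowest in normal 1. Normal 3 was the highest normal array in 8 of the 10 genes. Proximal tubule markers fell from normal 1 to normal 3, at 16484, 12435 and 6540. B cell markers, at 467, 132 and 89.8, and T and NK cell markers, at 987, 193 and 80.9, did so too. Ischemic 1 was the lowest ischemic array in 8 of the 10 genes. Its proximal tubule sum was 775, the lowest of all 8 arrays. Its macrophage sum of 8874 and monocyte sum of 3076 were above every normal array. The part of cell composition in the low values of normal 1 and ischemic 1, and in the high values of normal 3, was not tested.

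**Figure D3:**
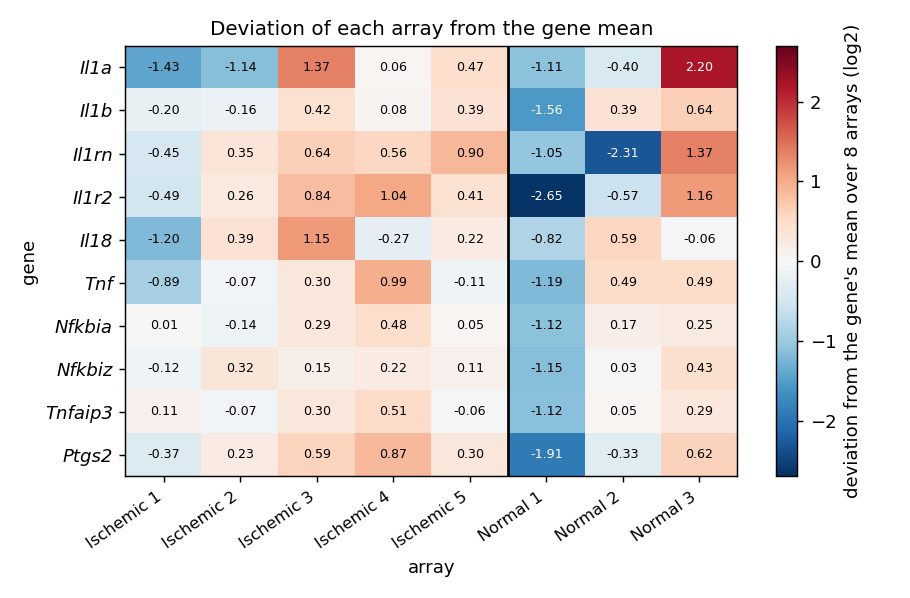
Deviation of each array from the gene's mean over the 8 arrays (log2, colour and number), with ischemic arrays left of the line and normal arrays right of it. The column of normal 1 is negative throughout, and that of normal 3 is positive in every gene except Il18.

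The 10 genes tended to vary together over the arrays, Il1rn and Il18 the least (r = 0.14). All 45 pairs had a positive Pearson correlation over the 8 arrays, with a median of 0.67, and 13 passed an adjusted p of 0.05 (exact permutation test, Benjamini-Hochberg over the 45 pairs). Over all pairs of the 9097 brighter genes 52.3% were positive, with a median of 0.032. None of the 45 passed by Spearman's rank correlation adjusted in the same way. Without normal 1 the median was 0.52 over the 45 pairs and 0.051 over all pairs of brighter genes, and 0 of the 45 passed. Then 43 of the 45 were positive, against 53.2% of all pairs of brighter genes. The negative pairs were Il18 with Tnfaip3 (r = -0.089) and Il1rn with Il18 (r = -0.018).

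2 pairs stood closest. Il1r2 and Ptgs2 had a Pearson r of 0.994 (adjusted exact permutation p = 0.00781) and a Spearman rho of 0.952 (adjusted exact permutation p = 0.0502), and r was 0.968 without normal 1 and normal 2, the arrays farthest from the median of Il1r2. Nfkbia and Tnfaip3 had an r of 0.987 (adjusted exact permutation p = 0.00781) and a rho of 0.929 (adjusted exact permutation p = 0.0502), and r was 0.837 without ischemic 4 and normal 1. By contrast, Il1b and Nfkbia had an r of 0.910 that was 0.355 without ischemic 1 and normal 1, so that relation rests on those arrays. Il1b and Il1rn had an r of 0.390 (adjusted exact permutation p = 0.349), with a rho of 0.671 (adjusted exact permutation p = 0.148).

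Among the brighter 50% of genes, the one whose pattern over the 8 arrays was most like Nfkbia was Tnfaip3, and the reverse held too. Likewise Il1r2 and Ptgs2 were each other's closest. For Il1b the closest was Pdia3 (r = 0.979), for Il1rn Wsb1 (r = 0.984), for Tnf Rtn4rl1 (r = 0.976), for Nfkbiz Nr4a2 (r = 0.976), for Il18 Rap2c (r = 0.970) and for Il1a Pdhb (r = 0.952). These are the highest of 9096 or 9097 correlations each, over arrays that include the low values of normal 1.

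**Figure D4:**
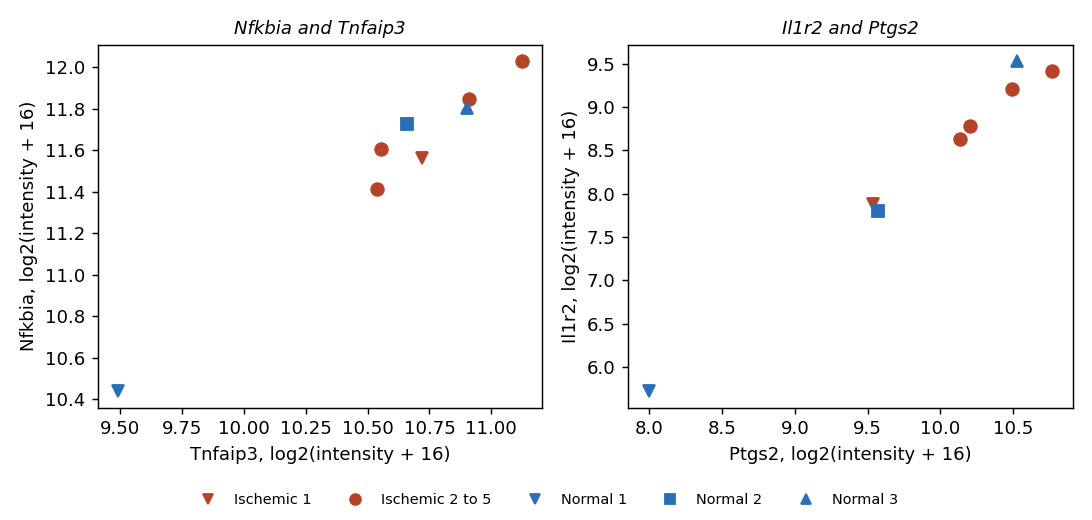
Levels of Nfkbia against Tnfaip3 (left) and of Il1r2 against Ptgs2 (right) on the log2(intensity + 16) scale, one point for each of the 8 arrays. Normal 1 lies at the low end of both plots, and the other 7 arrays follow the same line, with r = 0.916 and 0.978 without normal 1.

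The promoters of Nfkbia and Tnfaip3 are shown because these were the 2 members with a promoter that held the NF-kappaB consensus decamer. The promoters of Il1r2 and Ptgs2, the pair with the higher r, held 0 matches to it. RefSeq (build GRCm38.p6) gave 12 promoters for 9 of the 10 genes, each with 250 bases before and 50 after a gene start. The consensus was taken as GGG, then A or G, any 2 bases, 2 bases that are each C or T, and CC. Both strands were searched. The consensus was found in 8.46% of all 32851 promoters in the table. Capitals mark the consensus matches, the sequences run 5′ to 3′ in the direction of the gene, and both genes lie on the minus strand, Nfkbia at chr12:55492598-55492897 and Tnfaip3 at chr10:19015361-19015660.
Nfkbia: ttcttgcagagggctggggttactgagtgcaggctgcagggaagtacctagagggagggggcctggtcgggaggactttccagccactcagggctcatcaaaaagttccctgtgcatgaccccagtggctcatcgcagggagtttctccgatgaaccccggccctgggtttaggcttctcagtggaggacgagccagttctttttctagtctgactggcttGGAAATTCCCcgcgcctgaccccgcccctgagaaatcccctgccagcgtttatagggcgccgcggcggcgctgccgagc
Tnfaip3: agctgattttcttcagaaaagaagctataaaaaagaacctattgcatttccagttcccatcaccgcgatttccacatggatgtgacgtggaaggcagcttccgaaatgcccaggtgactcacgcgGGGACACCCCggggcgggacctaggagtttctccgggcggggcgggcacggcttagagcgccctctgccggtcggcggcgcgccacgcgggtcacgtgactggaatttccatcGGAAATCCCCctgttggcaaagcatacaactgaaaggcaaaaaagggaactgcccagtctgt
The Nfkbia promoter held 1 match, which starts 29 bases before the gene start. The Tnfaip3 promoter shown held matches at 2 places, 125 and 12 bases before its gene start. The other Tnfaip3 promoter, at chr10:19011914-19012213, held 0 consensus matches. The match at 125 bases reads as a consensus on both strands. A looser motif, GGG followed by any 5 bases and then CC, which contains every consensus match and can overlap itself, was present in 50.8% of all promoters and in a promoter of 5 of the 9 genes (Ptgs2, Il1rn, Tnfaip3, Nfkbia and Tnf). The shares of 8.46% and 50.8% count promoters, whereas the members are counted by gene. Il1rn and Tnfaip3 have more than 1 promoter each and so more chances of a match. A match is a description of these letters and not of binding.

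The other genes of the pathway came from 8 lists with 109 measured genes that are not among the 10. With limma 0 of the 109 passed an adjusted p of 0.05 over all genes (lowest 0.392). At an unadjusted p under 0.05, 6 were higher and 1 was lower, together 6.42% of them, against 7.13% of all genes. The split was 3 higher and 2 lower with arrays centred on their medians, and 2 higher and 3 lower with no scaling. Differences were positive in 77 (70.6%), against 54.8% of all genes, and the median was 0.20. Normal 1 was the lowest of the 8 arrays in 46 of the 109 (42.2%), against 14.8% of all genes. Of the 37 pathway genes named here, leaving out normal 1 moved 21 by over 1.5 times, 18 of them toward or past 0, and leaving out normal 3 moved 15.

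**Figure D5:**
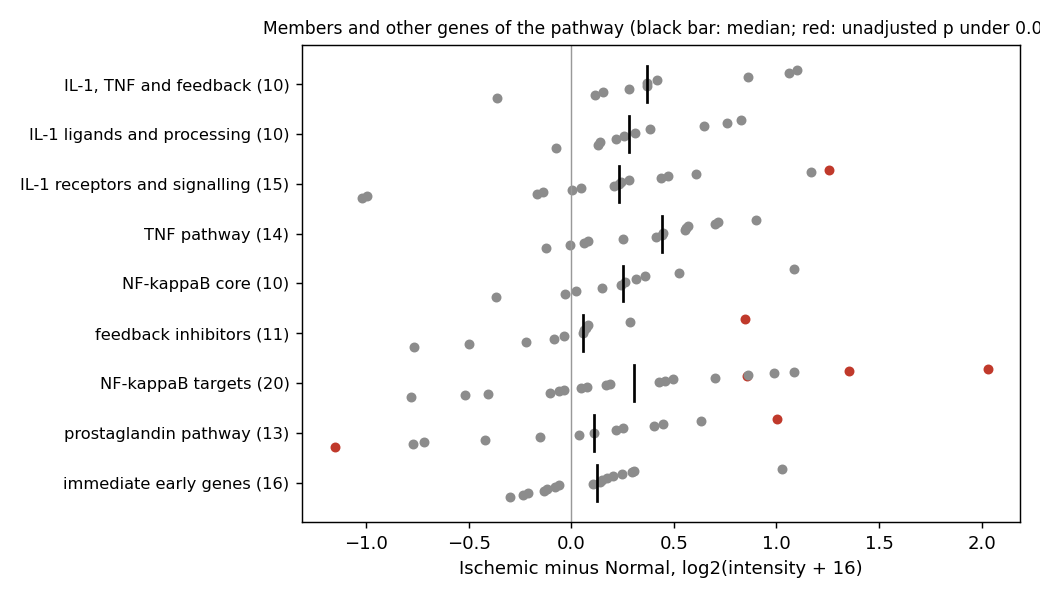
Ischemic minus normal difference on the log2(intensity + 16) scale (horizontal axis) for the 10 genes and the 109 other genes of the pathway by list, one point per gene, with the median as a black bar and unadjusted p under 0.05 in red. The medians lie between 0.058 (feedback inhibitors) and 0.44 (TNF pathway).

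Among targets of NF-kappaB, 3 of 20 had an unadjusted p under 0.05, all higher, and 14 were positive. Over all genes 2.11% were higher and 5.02% lower at such a p, and 54.8% were positive. Ccl2, the chemokine that draws monocytes, was at 7.09, 8.32, 9.84, 8.73 and 8.71 in ischemic 1 to 5, and at 5.33, 6.87 and 7.32 in normal 1 to 3. Only ischemic 1 lay within the normal range. The difference was 2.03 ± 0.64 (SE; limma adjusted p = 0.411). The others were Cxcl10, an interferon-inducible chemokine, at 1.35 ± 0.56 (limma adjusted p = 0.661), and Cd83, an activation marker of dendritic cells, at 0.86 ± 0.34 (limma adjusted p = 0.618). Without normal 1 they were at 0.74 and 0.44. The brightest targets, the neutrophil chemokines Cxcl2 and Cxcl1, differed by 0.50 and 0.99, and normal 1 was again their lowest array. Without it they were at 0.027 and -0.15. Normal 1 was the lowest of the 8 arrays in 13 of the 20 targets, against 14.8% of all genes. The median of the targets, 0.31, was -0.064 without normal 1.

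Receptors and signalling genes of the IL-1 family gave 1 of 15 with an unadjusted p under 0.05, against 7.13% of all genes. This was Irak3, which encodes IRAK-M, an inhibitor of IL-1 and Toll-like receptor signalling. It was at 7.63, 7.17, 6.50, 6.46 and 6.24 in ischemic 1 to 5, and at 5.12, 5.35 and 6.16 in normal 1 to 3, so the groups did not overlap. Over all genes 1.89% were higher in ischemic arrays without overlap. The difference of Irak3 was 1.25 ± 0.39 (SE; limma adjusted p = 0.392), and it was -0.40 with the most variable probe set of the gene in its place. Tab1, which activates the kinase TAK1, differed by 1.17 ± 0.55 and Il1r1, the signalling IL-1 receptor, by -1.02 ± 0.58 (SE). The bright Tab2 and Irak1 differed by 0.21 and 0.048. Without normal 1, Tab1 was at 0.62. Among the low Xist arrays Irak3 was at 0.64, Tab1 at 0.33 and Il1r1 at -0.17. Of the ligands and the inflammasome genes that mature IL-1beta and IL-18, 0 of 10 had an unadjusted p under 0.05, against 7.13% of all genes. Gsdmd, which encodes the pore-forming gasdermin D, was at 0.83 ± 0.42, Pycard, the inflammasome adaptor, at 0.65 ± 0.42, Il33 at 0.38 ± 0.29 and Nlrp3, the inflammasome sensor, at 0.31 ± 0.49 (SE). Pycard was at 0.42 without normal 3, Il33 at 0.19 without ischemic 3 and Nlrp3 at -0.23 without normal 1.

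In the TNF pathway 0 of 14 had an unadjusted p under 0.05, against 7.13% of all genes. Traf5, a TNF receptor associated factor, was at 0.70 ± 0.31, Birc3, an inhibitor of apoptosis and NF-kappaB target, at 0.71 ± 0.40, and Ltb, lymphotoxin beta, at 0.90 ± 0.53 (SE). Birc3 was at 0.44 without normal 1 and at 1.09 without normal 3. The bright Tnfrsf1b, TNF receptor 2, was at -0.12 and Cflar, an inhibitor of caspase-8, at 0.064. In the core of NF-kappaB, 0 of 10 had such a p. Nfkbie, which encodes IkappaBepsilon, was at 10.47, 10.73, 10.78, 10.84 and 10.58 in ischemic 1 to 5, and at 8.03, 10.20 and 10.55 in normal 1 to 3, again with normal 1 far below the rest. Its difference was 1.09 ± 0.52 (SE; limma adjusted p = 0.749), and 0.30 without normal 1. Nfkbid was at 0.53, Ikbkb, a kinase of IkappaB proteins, at 0.24 and Rela, the p65 subunit, at 0.025. Nfkbid was at 0.29 without normal 1, and Ikbkb at 0.080 without normal 2.

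Of 11 other feedback inhibitors 1 had an unadjusted p under 0.05, against 7.13% of all genes. This was Socs3, an inhibitor of cytokine receptor signalling, at 0.85 ± 0.36 (SE; limma adjusted p = 0.677), while the ubiquitin ligase genes Rnf11 and Itch were at -0.77 and -0.50. Rnf11 was at -0.42 without normal 1, and Itch at -0.29 without ischemic 4. The brightest, Zfp36, which destabilizes the Tnf messenger RNA, and Dusp1, a phosphatase of MAP kinases, were at 0.061 ± 0.19 and 0.081 ± 0.19 (SE). In the prostaglandin pathway 1 of 13 was higher and 1 lower at an unadjusted p under 0.05. Over all genes 2.11% were higher and 5.02% lower at such a p. Tbxas1, thromboxane synthase, was at 1.00 ± 0.38 with groups that did not overlap (limma adjusted p = 0.582). Of all genes 1.89% were higher without overlap. Ptger3, a receptor of prostaglandin E2, was at -1.15 ± 0.49 (limma adjusted p = 0.684), and Ptges, which makes prostaglandin E2 from the product of cyclooxygenase, was at -0.77 ± 0.34 (limma adjusted p = 0.706), and at -0.40 without normal 1. Ptger4 and Hpgd, which degrades prostaglandins, were at 0.25 and -0.42, and Hpgd was at -0.23 without normal 3. Immediate early genes, which tissue digestion is known to induce, gave 0 of 16 with an unadjusted p under 0.05, against 7.13% of all genes. Egr2 was at 1.03 ± 0.51, Atf3 at 0.30 ± 0.31, Jun at -0.30 ± 0.30 and Jund at -0.12 ± 0.23 (SE). Normal 1 was the lowest of the 8 arrays in 8 of the 16, among them Egr2, against 14.8% of all genes. The median of the list, 0.12, was -0.21 without normal 1. Egr2 was at 0.36 without normal 1 and at 1.70 without normal 3. Jun was at -0.098 without ischemic 3, and Atf3 at 0.13 without ischemic 2.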

How the data were processed

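Total RNA of the sorted cells was amplified with the NuGEN WT-Ovation Pico kit before labelling and hybridisation, per the labels' protocols. The authors deposited linear intensities of probe sets for 8 Affymetrix arrays, with background correction, summary and scaling not given in the sources used. Precision is limited by the number of arrays. The labels name 5 mice for the ischemic group and no number for the normal group, so p-values measure the spread between these arrays, which may be technical.

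Of 45101 probe sets, 64 controls were left out. The others were taken as log2(intensity + 16) and quantile normalized. The 34945 with 1 gene symbol gave 18193 genes, each its brightest probe set. Groups were compared with limma 3.58.1 (R 4.3.3) and p adjusted by Benjamini-Hochberg over all 18193. Balances and correlations used exact permutation tests (56 splits, 40320 orders). The fit was also tested on simulated data. Alternatives covered scaling, pseudocount, dim genes, probe sets, variance model and array weights. Others were replicate number or Xist class as a block, low Xist arrays only and each array left out.

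All 10 genes are named. From each pathway list the 3 genes of lowest unadjusted p and the 2 of highest mean level were named. The 3 genes most alike each member were found, and the closest is given. Genes and lists were chosen with earlier results of these data known. Lists were measured for 10 cell types, of which 3 are described with the arrays.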

Additional observations from a re-analysis of the deposited data

Results flagged for a closer look

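Of 47 genes checked for a single ischemic array far from the other 4, none of the 10 IL-1, TNF and NF-kappaB feedback genes stood out, and 3 other genes of the pathway did. Il33 was at 5.65 in ischemic 3, against 4.58 to 4.87 in the other ischemic arrays. Zfp36 was at 12.80 in ischemic 4, against 12.56 to 12.61 in the others. Cxcl10 was at 9.40 in ischemic 4, against 7.75 to 8.22 in the others. Chance flags about 1 in 20 such groups. Groups of 3 arrays were not checked in this way, so the low values of normal 1 are described in the results and not here.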

How the results depend on the processing

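Under the 21 alternatives 0 of the 10 genes passed an adjusted p of 0.05, and the lowest was 0.134 (Il1rn without normal 3). At an unadjusted p under 0.05 the count of 0 became 1 with the Xist class as a block (Ptgs2). It ran from 0 to 3 with 1 array left out, the 3 being Il1rn, Il1r2 and Ptgs2 without normal 3. The median over the 10 genes ran from -0.084 (without normal 1) to 0.69 (without normal 3), and was 0.071 among the low Xist arrays. The replicate numbers did not pair the arrays (same-number deviations correlated at 0.16, -0.088 and 0.10), and with the replicate block the median was 0.32 with 0 genes past the threshold. Over all genes 0 passed, against 31 with an intensity trend, 15 without dim genes, 5 with array weights, 2 with the mean of all probe sets, 2 with no scaling, 1 with a pseudocount of 1, 1 with the Xist block and 0 to 113 with 1 array left out (113 without normal 3). Of the 109 other pathway genes 7 had an unadjusted p under 0.05, 4 with a pseudocount of 1 and 3 to 11 with 1 array left out. Correlated pairs numbered 21 with arrays centred on medians and 0 to 23 with 1 array left out. With 1 array left out the balance of Il1rn to Il1b ran from -0.33 to 1.39 and that of Il1r2 to Il1b from 0.53 to 1.33.

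Signs turned as follows, and the cause was not tested. Tnf was at -0.15 with the replicate block, -0.053 with arrays centred on medians, -0.068 with no scaling, -0.019 with array weights and -0.097 among the low Xist arrays. There Il1b was at -0.22, Nfkbiz at -0.068, Cflar at -0.16, Zfp36 at -0.038 and Ptger4 at -0.35. With the replicate block Irak1 was at -0.13 and Rela at -0.39. With arrays centred on medians Tab2 was at -0.0038, Irak1 at -0.12, Cflar at -0.13 and Rela at -0.19, and with no scaling they were at -0.019, -0.14, -0.14 and -0.21. With array weights Rela was at -0.0081, Zfp36 at -0.014 and Ptger4 at -0.015. With the mean of all probe sets Tnfrsf1b was at 0.20, Cflar at -0.20, Itch at 0.13 and Jund at 0.21. With the most variable probe set Irak3 was at -0.40, Tnfrsf1b at 0.51, Cflar at -0.74, Rnf11 at 0.66, Itch at 0.032 and Jund at 0.54. With 1 array left out Il1a ran from -1.03 to 0.62, Il1b from -0.41 to 0.69, Il18 from -0.20 to 0.50, Tnf from -0.45 to 0.39, Nfkbia from -0.075 to 0.61, Nfkbiz from -0.092 to 0.70, Tnfaip3 from -0.013 to 0.69, Nlrp3 from -0.23 to 0.68, Tab2 from -0.053 to 0.36, Irak1 from -0.10 to 0.18, Tnfrsf1b from -0.44 to 0.059, Cflar from -0.35 to 0.40, Rela from -0.26 to 0.25, Zfp36 from -0.062 to 0.12, Dusp1 from -0.039 to 0.16, Cxcl1 from -0.15 to 1.60, Ptger4 from -0.16 to 0.50 and Jund from -0.20 to 0.0046.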

Other observations

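Of the 10 cell type lists, those not given with the arrays had these summed marker intensities. Monocyte markers (5) were at 3076 to 6370 in ischemic and 2107 to 2954 in normal arrays, with positive differences in 5 of 5. Neutrophil markers (9) were at 173 to 1391 in ischemic and 291 to 1088 in normal arrays, with Ngp near the floor in all arrays. Dendritic cell markers (6) were at 883 to 1202 in ischemic and 537 to 1500 in normal arrays, with normal 1 the lowest array and normal 3 the highest. T and NK cell markers (6) were at 52.5 to 1565 in ischemic and 80.9 to 987 in normal arrays, and B cell markers (5) at 78.7 to 2253 in ischemic and 89.8 to 467 in normal arrays. For both of these lists ischemic 1 and normal 1 were the highest arrays of their groups. Differences were positive in 5 of 9 neutrophil and 3 of 6 dendritic cell markers. They were positive in 3 of 6 T and NK cell and 5 of 5 B cell markers. Endothelial markers (7) were at 672 to 7238 in ischemic and 1678 to 5728 in normal arrays. Their differences were negative in 7 of 7, with a median of -1.13. Markers of the distal nephron and collecting duct (7) were at 673 to 1377 in ischemic and 4196 to 5077 in normal arrays. Their differences were also negative in 7 of 7, with a median of -2.26. The part of these cells in the values of the 10 genes was not tested.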
